A study of Mus musculus with 6 samples.

Results

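A set of 10 tubulin and microtubule-regulator genes was followed through single-nucleus RNA sequencing of mouse colon, with the enteric neurons, the nerve cells of the gut wall, as the cells of interest. The set held 10 of the 31053 genes in the files. Tubb5, Tubb2a, Tubb2b, Tubb3, Tuba1a and Tuba1b encode tubulins, and Tppp3, Stmn2, Stmn3 and Dpysl3 encode proteins that act on microtubules or the growing nerve ending. Members were found by symbol, each symbol belonged to 1 gene ID, and the genes were selected on their levels in neurons of these libraries, known from an earlier analysis. Their levels in neurons are therefore given as a description, without a test.

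Nuclei came from the whole colon of wild-type C57BL/6J mice and were sorted on the DNA stain DAPI and on INTACT, a tag on the nuclear envelope. Mice of the Stress group (3 libraries) were restrained daily for 7 days. Mice of the Dexamethasone group (1 library) were injected with dexamethasone, a synthetic glucocorticoid, for 7 days, and the Control group (2 libraries) had the control treatment. The labels give no age, no driver of the tag and no number of animals per library, so the spread between libraries may be technical.

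Microtubules are hollow polymers of paired α- and β-tubulin that carry transport along nerve fibres. Neurons use several α and β isotypes, of which Tubb3 is the classic neuronal one, together with proteins that stabilise the polymer or take it apart. Stathmins such as Stmn2 and Stmn3 bind free tubulin and favour disassembly. Tppp3 belongs to the tubulin polymerization-promoting proteins, and Dpysl3 (also called CRMP4) is a collapsin response mediator protein of growth cones. Cells also match tubulin mRNA to the amount of free tubulin: when free tubulin is in excess, the factor TTC5 binds the start of the growing tubulin chain at the ribosome and the mRNA is degraded.

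The start of each coding sequence is shown for 9 of the 10 members because it carries that signal in the tubulins, with 3 of the regulators beside them; that of Dpysl3 is not shown here. The sequences are from GENCODE M21 (GRCm38), 5′ to 3′ on the coding strand, with the first 4 codons in capitals.
Tubb5: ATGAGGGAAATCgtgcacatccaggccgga
Tubb2a: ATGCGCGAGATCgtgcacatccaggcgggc
Tubb2b: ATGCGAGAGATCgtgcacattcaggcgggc
Tubb3: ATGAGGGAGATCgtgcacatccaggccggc
Tuba1a: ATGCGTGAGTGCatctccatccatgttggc
Tuba1b: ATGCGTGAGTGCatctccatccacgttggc
Tppp3: ATGGCAGCGAGCacggacatagctgggctg
Stmn2: ATGGCTAAAACAgcaatggcctacaaggaa
Stmn3: ATGGCCAGCACCgtatctgcctacaaggag
The start codons lie on chromosome 17 at 35838051-35838053 (Tubb5), chromosome 13 at 34077927-34077929 (Tubb2a) and 34130231-34130233 (Tubb2b), and chromosome 15 at 98934333-98934335 (Tuba1b). Tubb2a and Tubb2b are near-identical copies: 37.5% of the 91-base stretches of Tubb2a transcripts also occurred in Tubb2b. For Tuba1b, 63.1% of such stretches occurred in another gene, most often Tuba1c. Counts of Tubb2a, Tubb2b and Tuba1b therefore depend on how reads shared between copies were assigned. None of the stretches of Tubb5, Tppp3, Stmn2 or Stmn3 occurred in another gene.

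The files held 11040 barcodes and 58954323 UMIs (unique molecular identifiers, 1 per captured transcript), from 6057994 to 14838057 per library. After filtering, 3430 nuclei in 23 clusters remained, of which 527 in 5 clusters were neuron-like and 881 were glia-like. All 14 neuron markers were detected in neuron-like nuclei, and their summed level was 15500, 18700 and 17300 CPM (UMIs per 1000000 UMIs of the class) in Stress 1, 2 and 3, 17800 CPM in Dexamethasone, and 16600 and 19800 CPM in Control 1 and 2. Neuron-like UMIs numbered 247882, 1253662 and 1378163 in Stress, 606523 in Dexamethasone, and 667515 and 355971 in Control. The median neuron-like nucleus held 2943, 8433 and 8905.5 UMIs in Stress, 1061.5 in Dexamethasone, and 2355 and 4538 in Control. Of the barcode sequences, 17 occurred in 2 libraries, 3 of them among the nuclei kept.

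Tubb3 and Tuba1a, both textbook neuronal tubulins, gave no counts in neuron-like nuclei. Tubb3 was listed at 0 in all 11040 barcodes, and Tuba1a had 1 UMI in all of them. A count of 0 among the 4509716 neuron-like UMIs allows a level of up to 0.665 CPM, by counting error only. In GENCODE M21, Tubb3 (chromosome 8, 123411424-123422015, plus strand) lies wholly inside Gm20388, a gene model of 4434882 bases on the same strand that had 18886 UMIs. Tubb3 shared 0% of its exonic bases with Gm20388. All 36 protein-coding genes that lie inside Gm20388 on its strand were listed at 0, while 0 of the 35 on the opposite strand and 16% of the other 21826 protein-coding genes were. Tubb3 was thus at 0 together with every same-strand gene inside that model, in every group. Tuba1a (chromosome 15, 98949837-98953703, minus strand) shared 26.2% of its exonic bases with Gm49450, a gene model with 96 UMIs that also overlaps Tuba1b, and 65.9% of its 91-base stretches occurred in another gene. No level in enteric neurons can be given for Tubb3 or Tuba1a, and the results concern the other 8 members.

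The 4 counted tubulins were higher in neuron-like nuclei of the Stress and Dexamethasone libraries than in those of the Control libraries, by 2.32 to 2.82 times in the fits. Tubb5, a β-tubulin made in most cell types, had 214, 250 and 285 CPM in Stress 1, 2 and 3, 241 CPM in Dexamethasone, and 95.9 and 81.5 CPM in Control 1 and 2. Its log2 fold change was 1.44 ± 0.20 (SE) for Stress (n = 3) and 1.33 ± 0.25 for Dexamethasone (n = 1), each against Control (n = 2). Every treated library lay above both Control libraries.

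Tubb2a, a β-tubulin abundant in neurons, had 234, 239 and 268 CPM in Stress, 246 CPM in Dexamethasone, and 100 and 98.3 CPM in Control. The log2 fold change was 1.26 ± 0.18 for Stress and 1.21 ± 0.24 for Dexamethasone. Tubb2b, its neighbour and near copy, known for its part in cortical development, was lower throughout, with 68.6, 86.1 and 95.1 CPM in Stress, 85.7 CPM in Dexamethasone, and 21 and 42.1 CPM in Control. Its log2 fold changes were 1.5 ± 0.31 and 1.46 ± 0.38, and the Control values rest on 14 and 15 UMIs. For both genes the 3 Stress libraries and the Dexamethasone library did not overlap with Control. Since reads can be shared between them, the pair is best read together.

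Tuba1b, the widely made α-tubulin, had 169, 122 and 130 CPM in Stress, 147 CPM in Dexamethasone, and 58.4 and 39.3 CPM in Control. The log2 fold change was 1.35 ± 0.26 for Stress and 1.44 ± 0.33 for Dexamethasone. Here Stress 1 was the highest library, whereas it was the lowest Stress library for Tubb5, Tubb2a and Tubb2b. All 4 tubulins, from 3 chromosomes, lay higher in the treated libraries. Since they were chosen on these levels, nothing is read from that likeness.

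**Figure D1:**
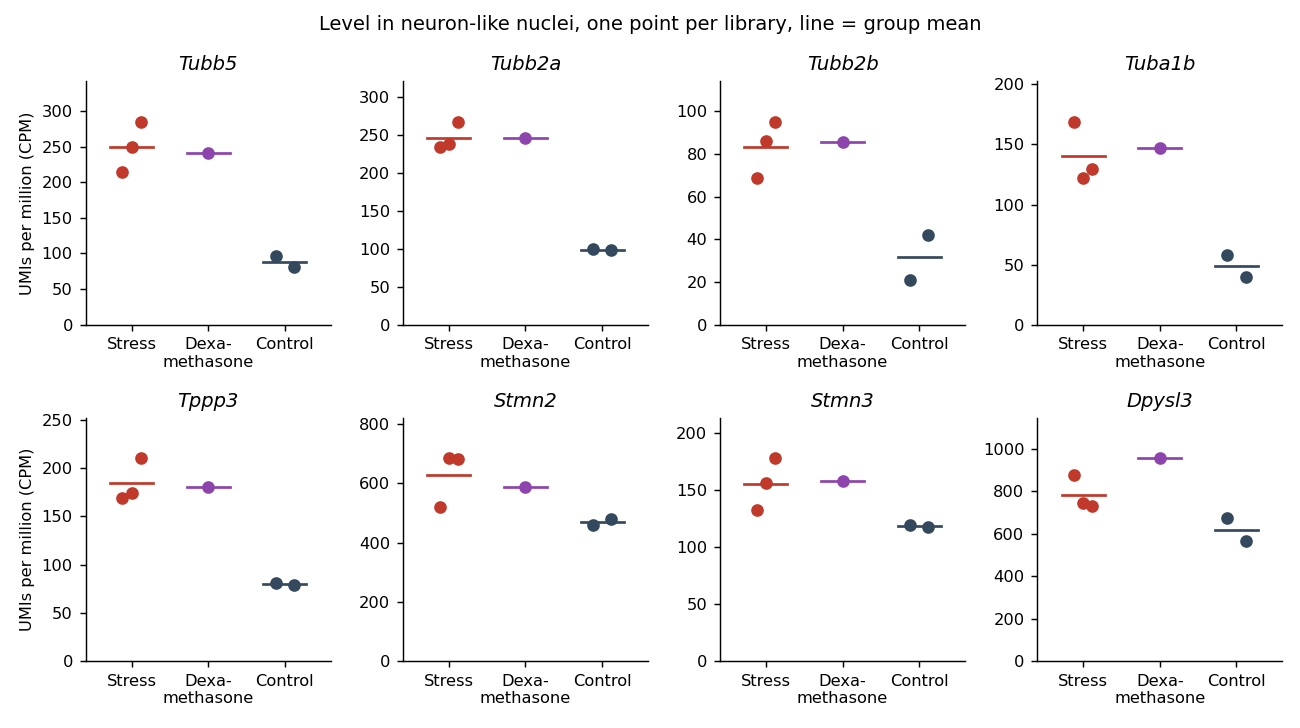
Level of the 8 counted members in neuron-like nuclei, in UMIs per 1000000 neuron-like UMIs (CPM, linear axis from 0), with 1 point per library and a line at the group mean. The 4 tubulins and Tppp3 sit far above Control in every Stress library and in the Dexamethasone library; Stmn2, Stmn3 and Dpysl3 sit above it by less.

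Among the regulators, Tppp3 followed the tubulins and the stathmins and Dpysl3 did so less. Tppp3 had 169, 174 and 210 CPM in Stress, 180 CPM in Dexamethasone, and 80.9 and 78.7 CPM in Control, with log2 fold changes of 1.16 ± 0.19 for Stress and 1.08 ± 0.25 for Dexamethasone. Its 2 Control libraries were nearly equal, and all treated libraries stood above them. Stmn2, a stathmin of growing and injured axons, was far more abundant at 520, 684 and 681 CPM in Stress, 589 CPM in Dexamethasone, and 458 and 480 CPM in Control. Its log2 fold change was 0.38 ± 0.18 for Stress and 0.24 ± 0.24 for Dexamethasone, so the Dexamethasone difference was no larger than its standard error.

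Stmn3, a stathmin of neurons, had 133, 156 and 178 CPM in Stress, 158 CPM in Dexamethasone, and 120 and 118 CPM in Control. Its log2 fold changes were 0.35 ± 0.19 and 0.32 ± 0.25. Dpysl3, the most abundant member, had 879, 745 and 731 CPM in Stress, 956 CPM in Dexamethasone, and 674 and 565 CPM in Control, with log2 fold changes of 0.28 ± 0.19 and 0.53 ± 0.25. For these regulators the libraries did not overlap between treatment and Control either, but the gap was a fraction of that of the tubulins. The 2 comparisons use the same Control libraries, so their fold changes are not independent of each other. With a stricter filter of nuclei, which left 18 Dexamethasone neurons, the Dexamethasone value turned to -0.23 for Tubb5 and was 0.23 for Tubb2a, while the Stress values stayed above 0 for all 4 tubulins.

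All 8 tested members lay above 0 in both comparisons, with a median log2 fold change of 1.21 for Stress and 1.15 for Dexamethasone, beside medians of 0.00 and -0.01 over all genes tested. Libraries did not overlap, with the treated side higher, for all 8 members, and for 17.4% of the 8066 genes tested for Stress and 42.1% of the 9282 tested for Dexamethasone. Since these contrasts were known when the members were chosen, nothing is read from those counts. Over all genes, edgeR's quasi-likelihood test with Benjamini-Hochberg adjustment at 0.05 called 0 genes for Stress and 0 for Dexamethasone (0% in both). At an unadjusted p under 0.05 there were 804 and 958 genes, and DESeq2 called 14 and 13.

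Other measures of the neuron-like nuclei differed between the same libraries. Mitochondrially encoded RNA made up 2.3%, 2.4% and 1.79% of neuron-like UMIs in Stress, 2.73% in Dexamethasone, and 1.22% and 1.21% in Control. Malat1, a long noncoding RNA retained in the nucleus, was at 57300, 42900 and 42200 CPM in Stress, 35300 CPM in Dexamethasone, and 49500 and 72900 CPM in Control, with Stress 1 between the Control libraries. A list of 26 housekeeping genes with abundant cytoplasmic mRNA summed to 3560, 4390 and 4800 CPM in Stress, 4500 CPM in Dexamethasone, and 2390 and 2670 CPM in Control. Of its 22 genes tested for Stress, 20 lay above 0, with a median log2 fold change of 0.67, against 0 of 7 genes of the nuclear RNA list, with a median of -0.41. For Dexamethasone the counts were 22 of 23 (median 0.79) and 0 of 7 (median -0.58). Ribosomal protein genes summed to 2420, 2750 and 2700 CPM in Stress, 3300 CPM in Dexamethasone, and 2170 and 4250 CPM in Control, where the groups overlapped. All 10 smooth muscle markers were detected and summed to 178, 332 and 481 CPM in Stress, 1000 CPM in Dexamethasone, and 271 and 230 CPM in Control. All 14 glia markers summed to 173, 190 and 361 CPM in Stress, 415 CPM in Dexamethasone, and 193 and 160 CPM in Control. The part of these shifts in the tubulin result was not tested. In such sums, more tubulin RNA per nucleus and more nuclei of a tubulin-rich type cannot be told apart.

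Fold changes in neuron-like nuclei also followed gene length. Over the genes tested for Stress, leaving out the member, pathway, quality and mitochondrially encoded genes, the median log2 fold change was 0.41 for the 334 genes spanning up to 5 kb. It was 0.30 for 465 genes of 5 to 10 kb, 0.14 for 1645 genes of 10 to 25 kb, 0.02 for 1932 genes of 25 to 50 kb, -0.07 for 1595 genes of 50 to 100 kb and -0.09 for 1902 longer genes. For Dexamethasone the shortest group had a median of 0.43 and the longest -0.11. The 4 tubulins and Tppp3 span 3141 to 4386 bases, so they fall in the shortest group and lie above its median. Stmn3 spans 8042 bases, and its values of 0.35 and 0.32 were near the group medians of 0.30 and 0.30 over genes of all levels. Among genes of that group averaging at least 6 on the log2 CPM scale, the medians were 0.602 and 0.725. Stmn3 lay below these. Stmn2 (52247 bases) and Dpysl3 (117303 bases) are long genes and lay above the medians of their groups. In glia-like nuclei the shortest group had medians of -0.27 for Stress and 0.02 for Dexamethasone, without the order seen in neurons.

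**Figure D2:**
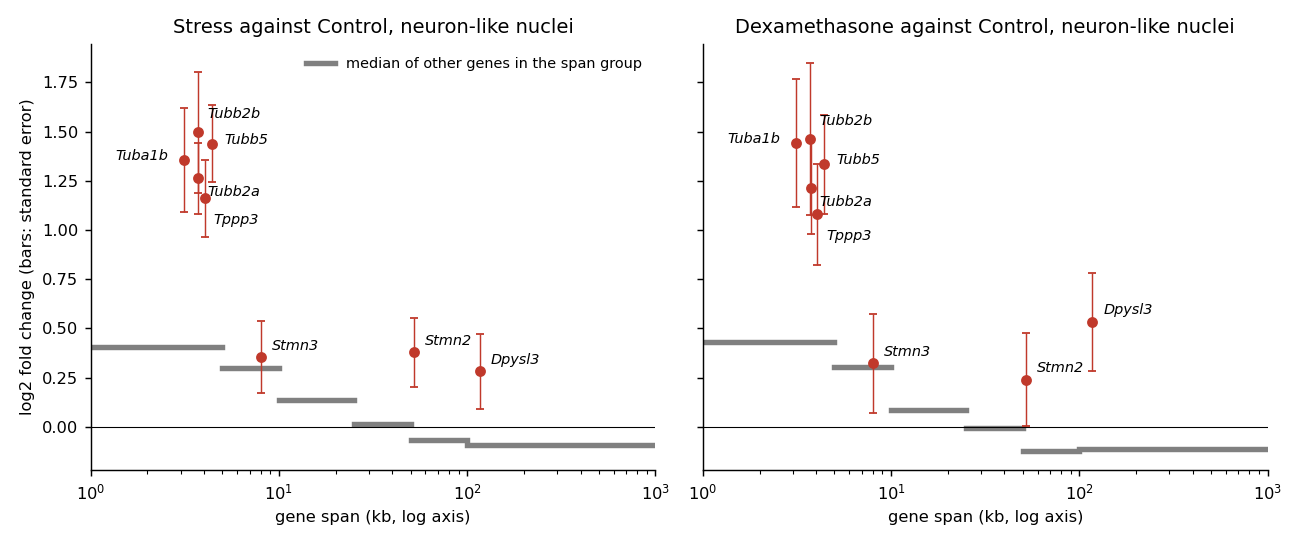
Log2 fold change against Control in neuron-like nuclei (vertical axis) by the span of the gene in kilobases (horizontal log axis), for the 8 members (points, bars are standard errors) and as medians of tested genes outside the lists in 6 span groups (grey lines). The 4 tubulins and Tppp3, all under 5 kb, lie above the median of short genes of 0.41 (Stress) and 0.43 (Dexamethasone). Stmn3 lies close to the median of its group taken over genes of all levels.

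Tubulin levels were also set out by mitochondrial share, in the same libraries on which the members were chosen. The part of mitochondrial share in the group difference was not tested. With the mitochondrial limit lifted there were 1227 neuron-like barcodes, of which 729 had a share above 5%. Summed over the 4 tubulins and expressed per 1000000 non-mitochondrial UMIs, barcodes with a share of 2 to 5% had 880, 887 and 944 in Stress 1, 2 and 3, 769 in Dexamethasone, and 281 and 402 in Control 1 and 2. The Stress 1 value there rests on 8 barcodes, under the 10 asked for in the neuron types, and that of Control 2 on 11. At 5 to 10% the values were 694, 1020 and 922 in Stress, 954 in Dexamethasone, and 333 and 351 in Control. At 10 to 20% they were 699, 877 and 926 in Stress, 911 in Dexamethasone, and 331 and 493 in Control. At 0 to 2% they were 460, 479 and 677 in Stress, 366 in Dexamethasone, and 266 and 219 in Control. In these 4 ranges every treated library lay above both Control libraries. The share of all genes doing so was not taken per range. In the main neuron-like sums it was 17.4% for Stress and 42.1% for Dexamethasone. Above 20% the order was lost, with 471, 652 and 644 in Stress, 695 in Dexamethasone (from 7 barcodes), and 710 and 372 in Control.

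The regulators showed less of this order. Summed over Tppp3, Stmn2, Stmn3 and Dpysl3, barcodes at 2 to 5% had 1820, 1940 and 1860 in Stress, 1890 in Dexamethasone, and 1050 and 1440 in Control. At 5 to 10% they had 1490, 2140 and 1980 in Stress, 1660 in Dexamethasone, and 1360 and 1690 in Control, so that Stress 1 and Dexamethasone lay below Control 2. Within each range from 0 to 20%, Tubb5 was higher in every Stress and Dexamethasone library than in both Control libraries. Its values at 5 to 10% were 228, 393 and 344 in Stress, 311 in Dexamethasone, and 108 and 146 in Control. At 0 to 2% the Dexamethasone margin was narrow, with 108 from 20 UMIs against 90.6 and 74.2 in Control. With the stricter filter of nuclei, the Dexamethasone log2 fold change of Tubb5 was -0.23.

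**Figure D3:**
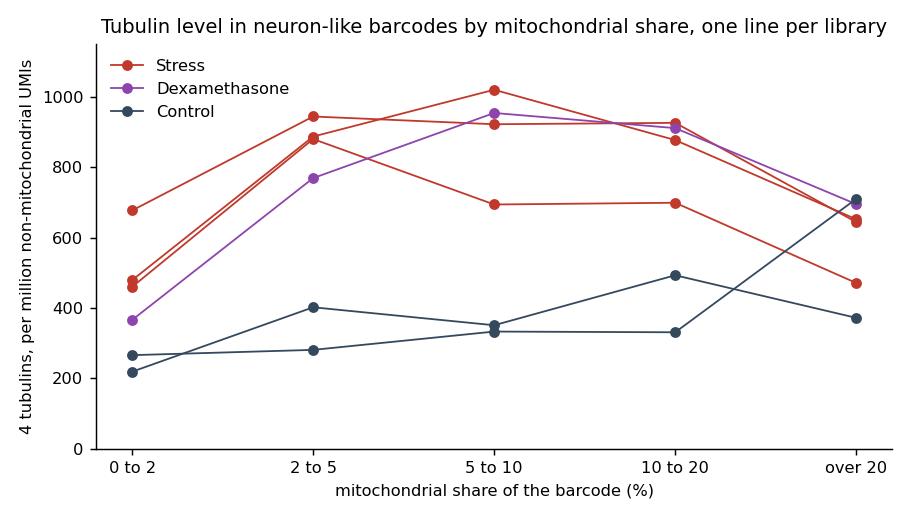
Summed level of the 4 tubulins in neuron-like barcodes, per 1000000 non-mitochondrial UMIs (linear axis from 0), by the mitochondrial share of the barcode in 5 ranges, with 1 line per library. The Stress and Dexamethasone lines lie above both Control lines up to a share of 20% and mix with them beyond it. The Stress 1 point at 2 to 5% rests on 8 barcodes and the Dexamethasone point above 20% on 7.

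Neuron types differed in tubulin level, and their order differed in part between libraries. Cluster 7 lay above cluster 16 in Stress 2 but below it in both Control libraries. Of the 5 neuron-like clusters, cluster 14 (led by Mgat4c, Nmu and Cdh8) was sensory neuron-like. Cluster 7 (Ntng1, Vip and Ebf1) was inhibitory motor neuron-like. Cluster 16 (Sst, Grik1 and Nxph1) and cluster 3 (Grm8, Kctd16 and Penk) were excitatory motor neuron-like. Cluster 10 (Gm48877, Opcml and Bves) was nearest to the inhibitory motor list. The markers of that list averaged only 0.17 higher there, on the log2 scale, than in the other neuron-like clusters. Members and pathway genes took no part in the clustering. In cluster 14 the 4 tubulins summed to 1370 and 1480 CPM in Stress 2 and 3, the highest of the clusters measured in these libraries, and to 1230 CPM in Dexamethasone, where no other cluster had 10 nuclei. Control had only 8 and 6 nuclei of this cluster, too few for a level. In cluster 7 the sum was 626 and 760 CPM in Stress 2 and 3, and 246 and 168 CPM in Control 1 and 2.

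Cluster 16, the largest, allowed all Stress and Control libraries to be set side by side. Its tubulin sum was 636, 485 and 761 CPM in Stress, and 393 and 369 CPM in Control, without overlap. In cluster 10 the sum was 309, 462 and 457 CPM in Stress, and 163 and 106 CPM in Control. In cluster 3, Stress 2 had 553 CPM and Control 1 had 282 CPM, the only libraries with enough nuclei. In all 4 clusters that could be compared, the tubulin sum of each Stress library lay above that of each Control library. Cluster 3 sets only 1 library against 1. The share of all genes so separated was not taken per cluster and was 17.4% for Stress in the whole neuron-like class. Single tubulins rest on few UMIs there and did overlap: Tubb5 in cluster 16 had 159, 212 and 283 CPM in Stress, and 183 and 90.4 CPM in Control. Cluster 10 had the lowest tubulin sum of the clusters measured in Stress 1, 2 and 3 and in both Control libraries.

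Single members differed in the clusters where they were highest and lowest. Dpysl3 was highest in cluster 10 among the Stress and Control libraries, with 1090, 1110 and 1100 CPM in Stress and 934 and 992 CPM in Control, and lowest in cluster 16 in Stress 2 and 3 and Control 2, with 425, 441 and 347 CPM. Stmn2 was highest in cluster 14, with 1090 and 1040 CPM in Stress 2 and 3, while the other clusters ranged from 570 to 656 CPM in those libraries; Dexamethasone had 1050 CPM in cluster 14. Stmn3 in cluster 16 was 119, 103 and 152 CPM in Stress, and 172 and 143 CPM in Control, so the groups overlapped there and 2 Stress libraries lay below both Control libraries. Tppp3 in cluster 16 was 79.5, 124 and 199 CPM in Stress, and 111 and 151 CPM in Control, and also overlapped. In cluster 10 Tppp3 was at 146, 181 and 146 CPM in Stress and 65.3 and 23.6 CPM in Control, without overlap. The Control values rest on 10 and 2 UMIs and that of Stress 1 on 9. The share of all genes so separated was not taken per cluster and was 17.4% for Stress in the whole neuron-like class.

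The make-up of the neuron-like class differed between libraries. Cluster 14 gave 3.04%, 19.7% and 12% of the neuron-like UMIs in Stress, 15.7% in Dexamethasone, and 8.07% and 14.7% in Control. In Dexamethasone, 42 of the 70 neuron-like nuclei were in this cluster, at a median of 664 UMIs. Without cluster 14, an alternative added after seeing the data, the Stress log2 fold change was 1.24 for Tubb5, 1.01 for Tubb2a, 1.30 for Tubb2b and 1.10 for Tuba1b, and the Dexamethasone values were 1.15, 0.99, 1.43 and 1.31 in the same order.

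**Figure D4:**
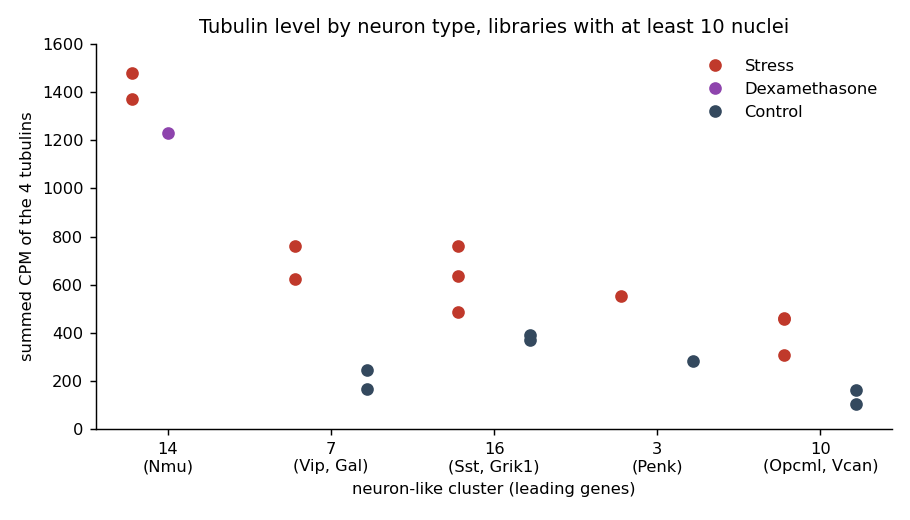
Summed CPM of the 4 tubulins (linear axis from 0) in each neuron-like cluster, with 1 point per library that had at least 10 nuclei of the cluster, Stress to the left of Dexamethasone and Control. Cluster 14 reaches 1480 CPM and has no Control point, and in the other 4 clusters all Stress points lie above the Control points.

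Shares of nuclei with a UMI gave the same picture less firmly. With each nucleus thinned to 1000 UMIs, Tubb5 was found in 17.9%, 15.5% and 22.9% of neuron-like nuclei in Stress, 25.7% in Dexamethasone, and 8.09% and 5.26% in Control. The Wilson 95% intervals were 7.88 to 35.6% for Stress 1 and 4.58 to 13.9% for Control 1, covering counting error only, so that single libraries were not all separated. Without thinning, the shares were 38.2%, 49% and 61.5% in Stress, 44.3% in Dexamethasone, and 21.7% and 24.2% in Control. Thinning left out 6, 3 and 8 shallower nuclei in Stress, 35 in Dexamethasone, and 21 and 5 in Control. In glia-like nuclei the thinned share of Tubb5 was 0%, 1.75% and 2.25% in Stress, 3.67% in Dexamethasone, and 0.575% and 3.7% in Control, at median depths of 1696 to 4478 UMIs in Stress, 5556 in Dexamethasone, and 2124 and 3112 in Control.

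Among the cell classes, neurons had the highest level of 7 of the 8 counted members in sums over the libraries. Over all 6 libraries, Stmn2 was at 612 CPM in neuron-like nuclei and 15.1 CPM in glia-like nuclei, a ratio of 40.5. The ratio was 27.0 for Tubb2b, 19.9 for Stmn3, 16.4 for Tubb2a, 7.76 for Tubb5, 4.95 for Dpysl3, 4.45 for Tuba1b and 2.85 for Tppp3. Classes follow from clusters of the same nuclei, so these ratios are a description. Outside neurons, Dpysl3 was at 289 CPM in fibroblast-like, 152 CPM in glia-like, 148 CPM in lymphatic endothelium-like and 141 CPM in smooth muscle-like nuclei. For Tppp3 the sums were close, at 164 CPM in neuron-like and 169 CPM in lymphatic endothelium-like nuclei. By library, Tppp3 was higher in neurons in Control 1 and 2 (80.9 and 78.7 CPM, against 49.7 and 45 CPM) and in Stress 2 and 3 (174 and 210 CPM, against 159 and 175 CPM). It was higher in lymphatic endothelium-like nuclei in Stress 1 (293 CPM from 8 UMIs, against 169 CPM in neurons) and about equal in Dexamethasone (180 CPM in neurons and 184 CPM).

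In glia-like nuclei, the support cells of the same ganglia, the members were tested, since they had been chosen for neurons. For Stress, 4 of the 10 members had enough counts. Tubb5 had 16.1, 44.0 and 30.9 CPM in Stress and 8.53 and 31.9 CPM in Control, with a log2 fold change of 0.60 ± 0.55 and an adjusted p of 0.708 by edgeR's quasi-likelihood test. Tuba1b (0.33 ± 0.55, edgeR adjusted p = 0.871), Tppp3 (-0.01 ± 0.29, edgeR adjusted p = 0.997) and Dpysl3 (-0.02 ± 0.26, edgeR adjusted p = 0.988) also missed the threshold. Of the 4 members, 0 were called, where 2.09% of 6545 genes were called in either direction, 1.53% higher. The standard errors of Tubb5 and Tuba1b would allow a fold change as large as in neurons or none. Depth limits this: the 2 Control libraries held 4 and 14 UMIs of Tubb5.

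For Dexamethasone, 5 members were tested in glia-like nuclei, all 5 lay above 0, and 1 was called, where 6.09% of 7699 genes were. Dpysl3 rose to 249 CPM in the Dexamethasone library, against 122 and 121 CPM in Control, and Stress had 106, 94.2 and 158 CPM. Its log2 fold change was 1.12 ± 0.31 (edgeR adjusted p = 0.0348), but the call was lost in 11 of 19 alternatives, among them without Control 1 (adjusted p = 0.0874), without Control 2 (adjusted p = 0.113) and with DESeq2 (adjusted p = 0.195). Over those alternatives the log2 fold change ranged from 0.29 to 1.31. Tuba1b had 42.7 CPM in Dexamethasone and 8.53 and 27.4 CPM in Control (1.35 ± 0.57, edgeR adjusted p = 0.204). Tppp3 (0.82 ± 0.36, edgeR adjusted p = 0.217), Tubb5 (0.78 ± 0.64, edgeR adjusted p = 0.562) and Stmn2 (1.42 ± 0.88, edgeR adjusted p = 0.423) did not pass. With 1 Dexamethasone library, its spread was taken from the other groups. Neuron markers in glia-like nuclei summed to 377, 440 and 539 CPM in Stress, 450 CPM in Dexamethasone, and 523 and 345 CPM in Control. Markers of other classes did move with the Dexamethasone values: all 10 smooth muscle markers were detected in glia-like nuclei and summed to 734 CPM in Dexamethasone, 190, 211 and 361 CPM in Stress, and 149 and 187 CPM in Control. All 7 lymphatic endothelium markers summed to 218 CPM in Dexamethasone, 90.2, 103 and 149 CPM in Stress, and 59.7 and 59.3 CPM in Control, and all 9 macrophage markers to 76.5 CPM in Dexamethasone, 22.6, 23 and 26.3 CPM in Stress, and 10.7 and 16 CPM in Control. Malat1 was at 75600 CPM in Dexamethasone, 130000, 94200 and 88200 CPM in Stress, and 121000 and 160000 CPM in Control. In the Dexamethasone library, Dpysl3 was at 158 CPM in smooth muscle-like and 83.5 CPM in lymphatic endothelium-like nuclei, against 249 CPM in glia-like nuclei. Tppp3 was at 30.3 CPM and 184 CPM in those 2 classes, against 82.4 CPM in glia-like nuclei. The part of the marker and Malat1 shifts in the glial values was not tested.

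**Figure D5:**
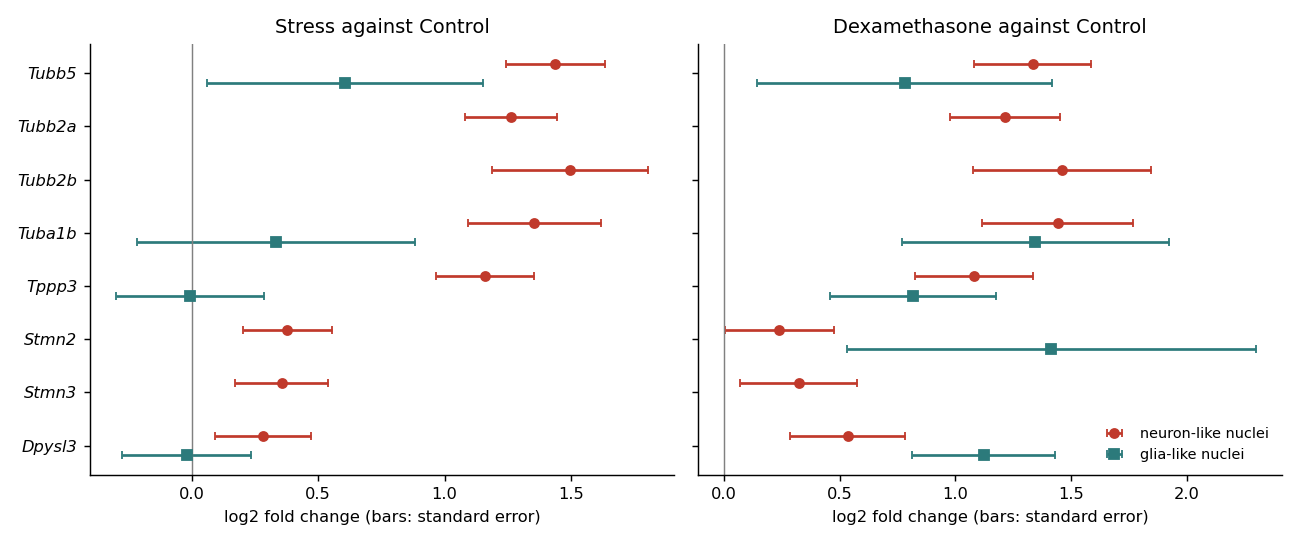
Log2 fold change against Control (horizontal axis, bars are standard errors) of the 8 members in neuron-like nuclei (circles) and, where tested, in glia-like nuclei (squares), for Stress and for Dexamethasone. For Stress, Tppp3 and Dpysl3 lie at 0 in glia-like nuclei; for Dexamethasone all 5 glia-like values lie above 0 with wide bars.

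The difference between the classes was fitted directly, with both classes of each library in 1 model. The Stress effect in neuron-like minus glia-like nuclei was 1.15 ± 0.38 for Tppp3, 0.99 ± 0.57 for Tuba1b, 0.89 ± 0.63 for Tubb2a and 0.76 ± 0.55 for Tubb5 on the log2 scale. It was 2.68 ± 1.28 for Tubb2b, whose glia-like counts were 0 to 4 UMIs per library, and 0.34 ± 0.70, 0.31 ± 0.37 and 0.19 ± 0.82 for Stmn2, Dpysl3 and Stmn3. For Dexamethasone, Dpysl3 (-0.52 ± 0.42), Stmn2 (-1.11 ± 0.69) and Stmn3 (-0.10 ± 0.84) lay on the glial side, and Tubb2b (1.98 ± 1.41), Tubb2a (1.11 ± 0.76), Tubb5 (0.58 ± 0.65), Tppp3 (0.32 ± 0.46) and Tuba1b (0.14 ± 0.67) on the neuronal side. These effects contain the neuron values on which the members were selected, so they are a description without a test. Of all genes, edgeR's quasi-likelihood test called 17 of 8196 (0.207%; 0.0488% higher and 0.159% lower in neurons) for Stress and 33 of 10018 (0.329%; 0.0599% higher and 0.270% lower) for Dexamethasone, with 0 of the other pathway genes in either. The count of 17 was 2 without Control 2, 3 without Stress 1, 34 without Control 1 and 44 without Stress 2, and DESeq2 called 1. The count of 33 was 130 without Stress 2, 161 without Stress 3 and 60 without Control 1, and DESeq2 called 2.

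Elsewhere the members were sparse. Dpysl3 was tested in fibroblast-like nuclei, where it had 183, 298 and 221 CPM in Stress and 478 and 442 CPM in Control (log2 fold change -1.04 ± 0.36, edgeR adjusted p = 0.203). The direction was opposite to that in neurons, but it did not pass, where 1.45% of 1725 genes were called. For Dexamethasone it had 247 CPM there (-0.88 ± 0.52, edgeR adjusted p = 0.57; 2.39% of 2843 genes called, 2.18% higher). In smooth muscle-like nuclei Dpysl3 differed by -0.67 ± 0.45 for Stress (edgeR adjusted p = 0.627; 0.318% of 2834 genes called) and by -0.23 ± 0.52 for Dexamethasone (edgeR adjusted p = 0.919; 0.879% of 3870 genes called). Tubb5 was the other member tested in smooth muscle-like nuclei for Dexamethasone, at 10.1 CPM from 3 UMIs against 19.2 and 84.4 CPM in Control from 2 and 5 UMIs (-2.24 ± 1.89, edgeR adjusted p = 0.773). In fibroblast-like nuclei it was Stmn2, at 42.9 CPM from 4 UMIs against 57.3 and 147 CPM in Control from 3 and 8 UMIs (-1.22 ± 1.60, edgeR adjusted p = 0.828). In lymphatic endothelium-like nuclei, Tppp3 had 184 CPM in Dexamethasone and 49.7 and 45.0 CPM in Control, from 22 UMIs and 1 UMI each (1.93 ± 1.17, edgeR adjusted p = 0.782; 0.281% of 1422 genes called). Dpysl3, the other member tested there, went the other way, with 83.5 CPM in Dexamethasone and 298 and 360 CPM in Control (-1.93 ± 0.93, edgeR adjusted p = 0.704).

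The wider microtubule pathway was described with 9 lists of 167 genes, chosen with earlier results of these data known. In neuron-like nuclei 138 of them were tested for Stress and 142 for Dexamethasone, and 0 passed in either direction. Of the other tubulins, 3 were tested and 3 lay above 0 for Stress (median log2 fold change 0.70) and for Dexamethasone (0.58). All 5 neurofilament and intermediate filament genes lay above 0 for Stress (0.72), and 3 of 5 for Dexamethasone (0.46). Actin and growth cone genes lay above 0 in 12 of 14 for Stress (0.36) and 14 of 14 for Dexamethasone (0.60). The other stathmin, TPPP and CRMP genes did so in 5 of 6 for Stress (0.50) and 5 of 6 for Dexamethasone (0.54). Microtubule-associated proteins did so in 9 of 22 in both comparisons (-0.05 for Stress, -0.10 for Dexamethasone), and kinesin and dynein motors in 23 of 36 for Stress (0.11) and 15 of 36 for Dexamethasone (-0.02). Tubulin modification and MARK kinases lay above 0 in 6 of 15 for Stress (-0.15) and 4 of 16 for Dexamethasone (-0.15). Tubulin folding genes did so in 11 of 18 (0.22) and 14 of 19 (0.38), and end binding and severing genes in 12 of 19 (0.08) and 13 of 21 (0.10). All lists are set against 50.1% and 49.5% of all genes tested above 0.

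The pathway genes of smallest p in neurons did not reach the threshold. Cct7, a subunit of the chaperonin that folds tubulin and actin, had 56.5, 89.3 and 98.0 CPM in Stress, 84.1 CPM in Dexamethasone, and 30 and 33.7 CPM in Control (Stress 1.39 ± 0.28, edgeR adjusted p = 0.187). Clip3, a member of the CLIP family, had 68.6, 50.3 and 54.4 CPM in Stress and 21 and 14 CPM in Control (1.52 ± 0.33, edgeR adjusted p = 0.211). Dync1li2, a light intermediate chain of the dynein motor, had 60.5, 90.1 and 87.1 CPM in Stress and 43.4 and 28.1 CPM in Control (1.09 ± 0.27, edgeR adjusted p = 0.268). For Dexamethasone, Actg1, a cytoplasmic actin, had 162 CPM against 43.4 and 59.0 CPM in Control (1.61 ± 0.31, edgeR adjusted p = 0.08). Dynlt3, a dynein light chain, had 98.9 CPM in Dexamethasone against 44.9 and 53.4 CPM in Control (0.94 ± 0.29, edgeR adjusted p = 0.282).

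In glia-like nuclei, 97 pathway genes were tested for Stress. Nav2, a neuron navigator protein that binds microtubules, fell to 110, 103 and 136 CPM in Stress, against 250 and 201 CPM in Control (-0.98 ± 0.22, edgeR adjusted p = 0.0322), and 0 rose; the call for Nav2 was lost in 9 of 19 alternatives, among them DESeq2 and leaving out Control 1 or any 1 of the Stress libraries. Mapre1, which encodes the plus-end protein EB1, had 116, 119 and 103 CPM in Stress and 59.7 and 43.4 CPM in Control (1.07 ± 0.27, edgeR adjusted p = 0.0553). Gap43, a growth cone protein also made by glia, had 61.2, 29.3 and 47.0 CPM in Stress and 105 and 84.4 CPM in Control (-1.12 ± 0.31, edgeR adjusted p = 0.0843).

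For Dexamethasone, 8 of the 111 pathway genes tested in glia-like nuclei rose and 0 fell, where 5.44% of all genes rose and 0.649% fell. The smooth muscle, lymphatic endothelium and macrophage markers given above for the same glia-like sums were higher in Dexamethasone too (734, 218 and 76.5 CPM), and nuclear RNA was lower, at 76600 CPM in Dexamethasone against 122000 and 161000 CPM in Control; their part was not tested. Tubb6, a β-tubulin of non-neuronal cells, rose to 54.4 CPM, against 6.40 and 9.13 CPM in Control (2.87 ± 0.76, edgeR adjusted p = 0.0291). Kif1a, a kinesin of synaptic vesicle precursors, rose to 110 CPM, against 32.0 and 43.4 CPM (1.64 ± 0.35, edgeR adjusted p = 0.00696). Dclk1, a doublecortin-like kinase, rose to 281 CPM, against 132 and 79.9 CPM (1.48 ± 0.38, edgeR adjusted p = 0.023). Mapre1 rose to 125 CPM (1.36 ± 0.33, edgeR adjusted p = 0.0168), Arpc3 of the Arp2/3 actin complex to 171 CPM (1.63 ± 0.40, edgeR adjusted p = 0.0182) and Katna1, a subunit of the severing enzyme katanin, to 70.6 CPM (1.62 ± 0.42, edgeR adjusted p = 0.0237). The 8 calls were 0 with DESeq2 and 1 without Control 2. In smooth muscle-like nuclei 3 of 60 pathway genes rose for Dexamethasone, where 0.775% of 3870 genes rose, and they were Kif21a, Agbl4 and Fign. In fibroblast-like nuclei 1 of 42, where 0.211% of 2843 genes fell, was lower: Nav3 fell to 32.2 CPM in Dexamethasone, against 306 and 239 CPM in Control (-3.00 ± 0.75, edgeR adjusted p = 0.0172). Alternatives were not run for these 2 classes.

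Across the 6 neuron libraries the members followed each other to different degrees. They were chosen on their levels in these libraries, so such likeness is partly built in. The correlation of each member's log2 CPM with the mean of the others, given as a description over 6 libraries of 1 tissue, was 0.999 for Tubb2a, 0.994 for Tppp3, 0.987 for Tubb5, 0.91 for Tuba1b, 0.88 for Stmn3, 0.866 for Tubb2b, 0.799 for Stmn2 and 0.65 for Dpysl3. The mean centred log2 CPM of the members was 0.29, 0.28 and 0.36 in Stress, 0.32 in Dexamethasone, and -0.61 and -0.63 in Control. Of 5292 other genes that averaged 5 or more on the log2 CPM scale, those most like this mean were Calm2 (r = 0.992), Cbx5 (0.988), Paip2 (0.982), Hoxb5 (0.981), Rtn4 (0.979), Scoc (0.974), Eif1 (0.973) and Rab3a (0.971). Calm2, a calmodulin gene, had 335, 344 and 367 CPM in Stress, 363 CPM in Dexamethasone, and 250 and 261 CPM in Control. Hoxb5 had 194, 173 and 222 CPM in Stress, 180 CPM in Dexamethasone, and 91.4 and 89.9 CPM in Control. All of these libraries share the same depth and composition differences given above for mitochondrial and nuclear RNA.

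Promoters of the most abundant counted β-tubulins are shown as a description of these genes. They are the 250 bases before the start site from RefSeq (GRCm38.p6), minus strand, chr17:35838302-35838551 for Tubb5 and chr13:34078009-34078258 for Tubb2a, with the CCAAT box, the TATA box (TATAAA) and the cyclic AMP response element (TGACGTCA) on either strand in capitals.
Tubb5: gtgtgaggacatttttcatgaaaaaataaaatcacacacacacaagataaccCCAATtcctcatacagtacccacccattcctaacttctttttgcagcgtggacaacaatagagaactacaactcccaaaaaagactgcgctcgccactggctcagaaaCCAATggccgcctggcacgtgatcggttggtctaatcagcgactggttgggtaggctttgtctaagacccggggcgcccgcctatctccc
Tubb2a: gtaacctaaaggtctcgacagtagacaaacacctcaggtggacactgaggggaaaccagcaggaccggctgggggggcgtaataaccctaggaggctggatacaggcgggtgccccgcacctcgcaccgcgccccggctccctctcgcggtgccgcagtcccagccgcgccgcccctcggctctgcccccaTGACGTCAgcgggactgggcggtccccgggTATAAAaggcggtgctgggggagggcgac
RefSeq promoters of 300 bases were matched for 6 members (Tubb5, Tubb2a, Tubb3, Tuba1a, Tuba1b and Stmn3) and scanned on both strands. CCAAT occurred in 3 of 6, beside 38.5% of 19407 promoters, and GGGCGG in 5 of 6, beside 43.5%. TATAAA occurred in 1 of 6 (13.2% of all) and the cyclic AMP response element TGACGTCA in 1 of 6 (2.32% of all), both in Tubb2a. The glucocorticoid half-site TGTTCT was in 0 of 6 windows (17.3% of all), and the full glucocorticoid response element in 0 of 6 (0.00515% of all). A match or its absence in so short a window says nothing of binding.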

How the data were processed

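Single-nucleus RNA was measured in 6 10x Genomics libraries. The deposited files hold UMI counts per gene and barcode, made with Cell Ranger 4.0.0 for Control and Stress and 5.0.1 for Dexamethasone, per the file headers; the version thus changes with the Dexamethasone group. The build was mm10, per the submitters' processing notes, and whether intronic reads were counted is not given in the sources used here. The other deposited files list gene and barcode names and hold no measurement. The members and lists were chosen with earlier results of these data known.

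Barcodes with at least 300 genes and at most 5% mitochondrial UMIs were kept (3461). Scrublet, run per library, marked 31 (0.896%) as doublets, which were removed. Nuclei were clustered in scanpy 1.11.5 (2000 variable genes without members and pathway genes, 30 components, Leiden resolution 1) and clusters were named from 15 marker lists. Counts were summed per library and class, and CPM is per 1000000 UMIs of the class. Comparisons used edgeR 4.0.16 (filterByExpr, TMM, quasi-likelihood F-test, Benjamini-Hochberg over all genes tested, threshold 0.05) in R 4.3.3. The Dexamethasone fit held all 6 libraries. The SE of a log2 fold change is its absolute value divided by the square root of its F statistic. Scripts were tested on simulated data. The named pathway genes were, per comparison, up to 6 passing in each direction by size at an average log2 CPM of at least 4, or the 3 of smallest p where under 3 passed. In the comparisons of neuron-like nuclei members got no test. Alternatives were DESeq2 1.42.0, filters, clustering, thinning, scaling, left-out libraries, a replicate block and, chosen after seeing the data, the cluster 14, high-mitochondrial, plain-total and mitochondrial-covariate fits. Depths are given as UMIs per class and library, and intervals cover counting error only.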

Additional observations from a re-analysis of the deposited data

Results flagged for a closer look

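The neuron-like barcodes above the 5% mitochondrial limit, 729 in all, are left out of the main comparisons and used only in alternatives and in the ranges of mitochondrial share. Tubb5 had 199 CPM in the lowest Stress library and 277 CPM in the Dexamethasone library, against 143 CPM in the higher Control library. Tubb2a had 187 CPM in the lowest Stress library and 286 CPM in Dexamethasone, against 128 CPM in the higher Control library. Tubb2b had 77.8 and 91.4 CPM in the same libraries, against 40.2 CPM in Control, and Tuba1b had 107 and 181 CPM, against 78.4 CPM in Control. In these barcodes the 4 tubulins did not overlap between groups, but the libraries are those on which the members were chosen. The share of all genes so separated was not taken in these barcodes. In the main neuron-like sums it was 17.4% for Stress and 42.1% for Dexamethasone, so nothing is read from the count.

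Among the regulators, Tppp3 had 107 CPM in the lowest Stress library and 217 CPM in Dexamethasone, against 101 CPM in the higher Control library. Stmn2 had 537 and 552 CPM in those libraries, against 530 CPM in Control, a gap far below the spread within Stress. Stmn3 had 175 CPM in Dexamethasone, against 162 CPM in the higher Control library, with 195 and 169 CPM in Stress 2 and 3 also above it and 109 CPM in Stress 1 below. Dpysl3 had 699 and 739 CPM in Stress 2 and 3, above the 623 CPM of the higher Control library, and lay below it in Stress 1 (509 CPM) and in Dexamethasone (549 CPM). The lowest Stress library was Stress 1 for each gene. These values were not tested.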

How the results depend on the processing

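In neuron-like nuclei the Stress log2 fold changes of the 4 tubulins and Tppp3 stayed above 0 in all 20 alternatives, the lowest being 0.97 for Tubb5, 0.90 for Tubb2a, 0.96 for Tubb2b, 0.64 for Tuba1b and 0.85 for Tppp3, whereas Stmn3 reached -0.10 and Dpysl3 -0.15. The Stress median of 1.21 was 0.92 with the stricter filter, 0.87 without the mitochondrial filter, 1.44 thinned, 1.16 with the replicate block, 1.09 without Control 1 and Stress 1, 1.00 without cluster 14, 0.74 above 5% mitochondrial, 1.27 with plain totals, 1.27 with the mitochondrial covariate and 1.07 to 1.27 leaving out 1 library. The Dexamethasone median of 1.15 was 0.10 with the stricter filter, which leaves 18 Dexamethasone neurons (Tubb5 at -0.23, Tubb2a at 0.23), and 0.98 without the mitochondrial filter, 1.29 thinned, 1.01 without Control 1 and Stress 1, 0.88 without cluster 14, 0.93 above 5% mitochondrial, 1.23 with plain totals, 1.26 with the covariate and 1.02 to 1.15 leaving out 1 library. Genes called for Stress in neurons (0) were 14 with DESeq2, 145 with no count filter, 27 with the replicate block, 60 without Control 1 and Stress 1, and 0 to 1 leaving out 1 library. For Dexamethasone (0) they were 13 with DESeq2, 213 with no count filter, 11 with the stricter filter, 190 without the mitochondrial filter, 6 thinned, 67 with the replicate block, 10 without cluster 14, 181 above 5% mitochondrial, 22 with plain totals, 5 with the covariate and 0 to 48 leaving out 1 library, the 48 without Stress 1. In glia-like nuclei the 137 Stress calls were 32 with the stricter filter, 286 without the mitochondrial filter, 83 thinned, 254 without Control 1 and Stress 1, 295 above 5% mitochondrial, 347 with the covariate and 35 to 174 leaving out 1 library (35 without Stress 3, 49 without Stress 2, 84 without Control 2). The 469 Dexamethasone calls were 211 with DESeq2, 233 with the stricter filter, 302 thinned and 312 to 491 leaving out 1 library, the 312 without Control 2. The class difference had 17 Stress calls (1 with DESeq2, 2 to 44 leaving out 1 library) and 33 Dexamethasone calls (2 with DESeq2, 27 to 161), and member medians of 0.83 (0.49 to 1.11) and 0.23 (-0.42 to 0.23). Uncalled glial Stress values near 0 changed sign: Tppp3 was 0.01 with no count filter, 0.0182 with doublets kept, 0.0368 with plain totals, 0.0156 with the covariate and -0.13 to 0.0703 leaving out 1 library. Dpysl3 was 0.15 with the stricter filter, 0.0681 without Control 1 and Stress 1, 0.0213 with plain totals, 0.12 with the covariate and -0.33 to 0.13 leaving out 1 library. Tuba1b was -0.32 without the mitochondrial filter, -0.39 without Control 1 and Stress 1, -0.64 above 5% mitochondrial and -0.28 to 1.36 leaving out 1 library, and Tubb5 was -0.053 to 1.81. Deviations of same-numbered replicates from their group means correlated at 0.014 and 0.071 in neurons and at -0.154 and -0.022 in glia. With 2 Control libraries, the Control deviations mirror each other, so these values cannot decide whether same-numbered replicates share a batch. The labels give none. The cause of these changes was not tested. With 2 Control libraries and 1 Dexamethasone library, and few UMIs per member outside neurons, small differences were not detectable at this depth.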
